A study of Mus musculus with 188 samples.

Results

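Oligodendrocytes wrap the axons of the central nervous system in myelin, and they arise from progenitor cells that keep dividing in the adult brain. The genes followed here were 9 markers of that lineage, chosen by symbol and matched through their Ensembl identifiers, out of 25655 identifiers in the libraries of batch 1 and 25528 in those of batches 2 and 3. All 9 were found and all 9 passed the filter on low counts in both sets. Of these, Mbp, Mog, Mag, Cnp and Mobp encode proteins of the myelin sheath, Olig1 and Olig2 encode basic helix-loop-helix transcription factors of the lineage, and Pdgfra and Cspg4 encode a growth factor receptor and a proteoglycan on the surface of the progenitors. Whether the reads of Pdgfra and Cspg4 came from progenitors alone in these slices was not tested.

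Myelin is a stack of glial membrane held together by its proteins and rich in cholesterol and galactolipids. Mbp seals the cytoplasmic faces of that membrane, Mobp lies in the same compact layers, Cnp is found in the cytoplasm-filled channels, Mag sits on the membrane next to the axon, and Mog is on the outermost surface. Platelet-derived growth factor A, the product of Pdgfa, binds the receptor encoded by Pdgfra and drives the progenitors to divide, and Olig2 is needed for the lineage to form.

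The libraries came from coronal organotypic brain slices of young adult wildtype C57BL/6J mice of both sexes, which were kept on membrane inserts and treated after a week in culture. Batch 1 held 6 groups of 10 libraries, all taken at 24 h. They were untreated controls, slices given heme-albumin at 12.5, 50, 200 or 400 µM (heme bound to albumin, the form the study uses for free heme), and slices given 200 µM heme in complex with hemopexin, the plasma heme scavenger. Batches 2 and 3 held controls (10 at 24 h, 9 at 48 h), free hemoglobin (Hb) at 200 and 400 µM (10 in each group), the complex of Hb with its scavenger haptoglobin (HbHp) at 200 µM (8 at each time) and at 400 µM (4 at 24 h, 5 at 48 h), and haptoglobin alone (Hp) at 400 µM (12 at 24 h, 11 at 48 h). The proteins were human and the slices carried no genetic change. The titles of the heme-hemopexin libraries name haptoglobin while their treatment tags name hemopexin, and the tags were followed. Another 21 libraries had tags and titles that could not be reconciled and entered no comparison.

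The library names of batches 2 and 3 carry a code, E1 or E2, that splits those libraries into 53 and 54. All HbHp libraries were of batch 3 and E2, whereas most controls were of batch 2 and E1, so the fit across batches 2 and 3 held terms for batch and for this code. Library totals ran from 11038484 to 44199060 counts in batch 1 and from 15587938 to 54174784 in batches 2 and 3. The lowest count of any of the 9 genes in a library of batch 1 was 1066 (Cspg4 in a control), so that counting error was small beside the spread between libraries. The labels do not say which libraries came from separate animals, so the p-values measure only the spread between these libraries. A slice is a mixture of cells, and in such bulk samples fewer cells of a type and less RNA per cell cannot be told apart.

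The tissue was checked against further markers of the lineage. In untreated slices at 24 h, Sox10 and Myrf, transcription factors of the lineage, were at 213 ± 42.3 and 333 ± 64.4 CPM (counts scaled to 1 common library size, SD, n = 10) in batch 1. Of 6 markers of Schwann cells, the myelinating cells of peripheral nerve, 3 reached a mean of 1 CPM over all libraries of batch 1. The count was also 3 over all grouped libraries of batches 2 and 3. In untreated slices at 24 h the 6 markers summed to 120 to 203 CPM in batch 1 (median 170). In batches 2 and 3 they summed to 65.4 to 149 CPM (median 124).

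The stretches upstream of 5 members are shown, chosen among the members with a window because they carried differences described further on. Of these, 4 are myelin genes that moved together between libraries and the other is Olig2, the transcription factor gene that rose with heme. Mbp and Olig1 carried such differences too, but no window was read for them. The stretches are the RefSeq promoter windows on GRCm38.p6, printed 5′ to 3′ on the strand of the gene and clipped before the annotated gene start. Capitals mark ACAAAG or its reverse complement CTTTGT, letters of the kind bound by SOX proteins. The windows are chr17:37023399-37023648 (minus strand) for Mog, chr7:30914874-30915113 (minus strand) for Mag, chr11:100574689-100574903 (plus strand) for Cnp, chr9:120149492-120149706 (plus strand) for Mobp and chr16:91225300-91225456 (plus strand) for Olig2.
Mobp: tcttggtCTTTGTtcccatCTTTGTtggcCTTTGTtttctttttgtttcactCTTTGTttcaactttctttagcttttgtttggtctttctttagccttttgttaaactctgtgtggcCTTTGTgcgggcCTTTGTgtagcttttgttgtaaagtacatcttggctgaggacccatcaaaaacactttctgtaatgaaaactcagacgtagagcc
Mag: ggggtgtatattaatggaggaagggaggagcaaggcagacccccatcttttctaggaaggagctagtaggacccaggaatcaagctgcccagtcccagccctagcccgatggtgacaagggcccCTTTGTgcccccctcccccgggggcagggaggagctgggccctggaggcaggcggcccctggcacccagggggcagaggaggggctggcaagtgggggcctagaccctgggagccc
Cnp: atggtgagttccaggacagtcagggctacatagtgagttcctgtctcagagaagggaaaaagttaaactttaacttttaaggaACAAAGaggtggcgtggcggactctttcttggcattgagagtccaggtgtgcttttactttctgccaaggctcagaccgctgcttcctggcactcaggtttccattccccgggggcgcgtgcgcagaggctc
Mog: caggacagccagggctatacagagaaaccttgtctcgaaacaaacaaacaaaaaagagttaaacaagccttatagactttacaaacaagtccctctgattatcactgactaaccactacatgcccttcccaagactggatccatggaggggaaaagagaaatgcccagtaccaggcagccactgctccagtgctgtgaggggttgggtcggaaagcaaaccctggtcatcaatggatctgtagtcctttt
Olig2: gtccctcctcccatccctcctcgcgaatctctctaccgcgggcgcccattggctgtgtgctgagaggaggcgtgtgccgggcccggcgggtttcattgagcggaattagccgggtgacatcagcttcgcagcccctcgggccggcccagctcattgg

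Matches were counted over the whole window of 250 bases before the RefSeq start, which can run past the printed stretch. The window of Mobp held 6 matches to the SOX-type letters on either strand, that of Mag held 1 and that of Cnp held 1, whereas those of Mog, Olig2, Pdgfra and Cspg4 held 0. Among 32851 promoter windows of 250 bases, 16.5% held at least 1 match. The E-box letters CANNTG, of the kind bound by basic helix-loop-helix proteins, were found once each in the windows of Mag, Cnp and Pdgfra, against 66.2% of all windows. The core letters of the antioxidant response element, TGACNNNGC, were found once in the window of Cnp, in bases past the printed stretch, and in 10.2% of all windows. A match of letters is a description and not a site. Promoter windows were read for 7 of the 9 members. The search left out chromosome 18, on which Mbp lies, and found no entry for Olig1.

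Of the 9 genes only Olig1 and Olig2 are neighbours in the genome. On GRCm38, Olig2 spans 91225457 to 91228677 and Olig1 spans 91269772 to 91271933 of chromosome 16, both on the plus strand, with 41094 bases between them. Cnp (chromosome 11, 100574904 to 100591729, plus strand) overlaps Dnajc7 on the opposite strand, and Mobp (chromosome 9, 120149707 to 120181484, plus strand) overlaps the predicted gene Gm38642 on its own strand, so that reads in the shared stretches are uncertain. Mog (chromosome 17), Mag (chromosome 7), Pdgfra (chromosome 5), Cspg4 (chromosome 9) and Mbp (chromosome 18) complete the set. Pdgfra overlaps 3 annotated genes, 1 of them on its own strand, and Mbp, Mog and Olig1 overlap 1 each on the opposite strand, with the same uncertainty.

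The members covered a wide range of levels. Per kilobase of exon, Mbp stood at 1186 CPM over the 60 libraries of batch 1, which ranked 19 among 15533 genes, and at 1606 CPM over the libraries of batches 2 and 3, which ranked 13 among 16448 genes. In batch 1 it was followed by Cnp at 329, Mobp at 320, Mag at 282, Olig1 at 260, Mog at 180, Olig2 at 81.2, Pdgfra at 15.8 and Cspg4 at 14.7 CPM per kilobase. In batches 2 and 3 the order was Mbp, Cnp at 476, Mobp at 373, Mag at 363, Mog at 272, Olig1 at 206, Olig2 at 66.6, Pdgfra at 18.8 and Cspg4 at 18.5 CPM per kilobase. Cnp and Mobp as well as Mag and Olig1 in batch 1, Mog and Olig1 in batches 2 and 3, and Mobp and Mag as well as Pdgfra and Cspg4 in both sets were neighbours whose levels differed by less than the larger SD between libraries. Batch 1 and batches 2 and 3 were scaled apart from each other, so their levels were not tested against each other.

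The first question was whether heme-albumin changed the lineage genes, and the transcription factor gene Olig2 was the member that did change. Olig2 ranged from 135 to 213 CPM in the controls of batch 1, with a median of 180 CPM, from 192 to 284 CPM at 200 µM heme-albumin, with a median of 251 CPM, and from 150 to 336 CPM at 400 µM, with a median of 237 CPM. The lower doses lay between, with medians of 191 CPM at 12.5 µM and 210 CPM at 50 µM. All 10 libraries at 200 µM and 9 of 10 at 400 µM were above the control mean of 176 ± 29.3 CPM (SD, n = 10), although the ranges of the groups overlapped. Olig2 rose by 0.46 on the log2 scale at 200 µM (SE 0.11, adjusted p = 0.00168, edgeR quasi-likelihood test with Benjamini-Hochberg adjustment over 15554 genes, as in all comparisons of batch 1) and by 0.42 at 400 µM (SE 0.11, adjusted p = 0.0016). Across the 4 doses its log2 level rose by 0.07 for each doubling of the dose (SE 0.02, adjusted p = 0.00899). The call at 200 µM was kept in all 8 alternative settings, with log2 changes from 0.36 to 0.48, and in all 10 fits that left out a control library.

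**Figure D1:**
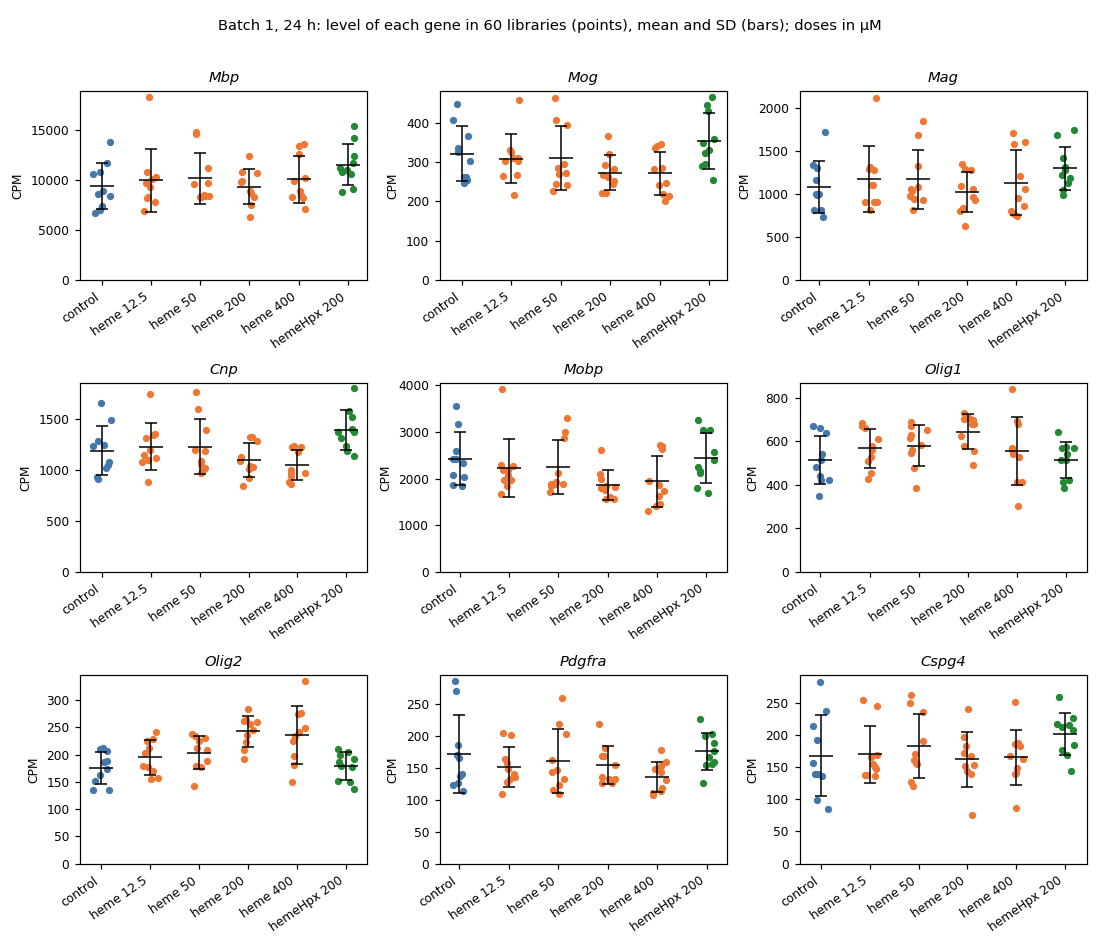
Each panel gives 1 of the 9 genes in batch 1, with the treatment at 24 h on the x axis (doses in µM, hemeHpx being the heme-hemopexin complex), the level in CPM on the y axis, 1 point per library and bars for the mean and SD of 10 libraries. Olig2 is higher at 200 µM heme-albumin (mean 243 CPM) and at 400 µM (mean 236 CPM) than in controls (mean 176 CPM), and is at 179 CPM with heme-hemopexin.

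Olig1, the neighbour of Olig2 and its close relative, did not pass the test at either dose. Its values ran from 350 to 669 CPM in controls (median 495), from 488 to 729 CPM at 200 µM (median 678) and from 302 to 838 CPM at 400 µM (median 550). The difference was 0.33 at 200 µM (SE 0.12, adjusted p = 0.0705) and 0.11 at 400 µM on the log2 scale (SE 0.12, adjusted p = 0.56, edgeR fit as above). It passed the test at 200 µM without any of 3 control libraries (replicates 15, 20 and 21) and in the fit of 30 libraries.

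No myelin gene of the 5 passed the test at any heme-albumin dose. Mobp came nearest. It ran from 1831 to 3562 CPM in controls (median 2379), from 1552 to 2622 CPM at 200 µM (median 1800) and from 1295 to 2714 CPM at 400 µM (median 1793), log2 differences of −0.38 (SE 0.15, adjusted p = 0.07) and −0.33 (SE 0.15, adjusted p = 0.0855). Most libraries at 200 µM lay below the control median, with wide overlap, and Mobp did pass the test at 200 µM after correction for GC content and length, in fits of 30 or of 20 libraries, and without control replicate 15. With the same correction Mobp and Cnp passed at 400 µM, and Cnp along the dose. Mbp, the most abundant member, had medians of 8724 CPM in controls, 9301 CPM at 200 µM and 9333 CPM at 400 µM. Mag had medians of 998, 1008 and 1003 CPM in the same groups, and its levels overlapped over nearly their whole range.

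The progenitor genes did not pass the test either. Pdgfra ran from 114 to 286 CPM in controls (median 152) and from 107.4 to 178 CPM at 400 µM (median 137), a log2 difference of −0.33 (SE 0.15, adjusted p = 0.0826) that did pass without control replicate 15 or 21. Cspg4 ran from 84.2 to 282 CPM in controls (median 148) and from 86.1 to 252 CPM at 400 µM (median 165).

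Read against all genes, 1 of 9 members was called at 200 µM heme-albumin, where 13.6% of 15554 genes were called, and 1 of 9 at 400 µM, where 4510 genes were called, 14.7% of all higher and 14.3% lower. The share of members called was above that of all genes at neither dose. At 12.5 µM 0 of 9 members were called (0.0450% of all genes) and 0 of 9 reached an unadjusted p under 0.05 (7.88% of genes). At 50 µM 0 of 9 were called (0.463% of all genes) and 0 of 9 reached an unadjusted p under 0.05 (11.7% of genes). These fits did not pair libraries by the letter and number code in their names. A small shift within a code could have been missed. Along the dose 1 of 9 was called (23.1% of all genes). The groups of no member stood apart without overlap in any of these comparisons, against 0.817% of genes at 200 µM and 2.10% at 400 µM.

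Other genes of the lineage were taken from lists of 16 myelin proteins, 20 genes of myelin lipid and support, 10 lineage transcription factors, 15 progenitor genes, 10 genes of newly formed oligodendrocytes and 15 genes of PDGF signals and differentiation inhibitors. At 200 µM heme-albumin 2 of 16 myelin protein genes fell and 0 rose, beside 6.60% of all genes lower and 6.98% higher, with a median log2 difference of −0.18 over the list. Tspan2, a tetraspanin of myelin, fell by 0.46 on the log2 scale (386 ± 53.4 against 532 ± 134 CPM, adjusted p = 0.00817) and Plekhb1, a membrane-associated protein of myelin, fell by 0.29 (507 ± 39.3 against 618 ± 47.6 CPM, adjusted p = 0.000973, SD, n = 10, from the same edgeR fit). Of the lipid and support genes 2 of 20 fell and 0 rose, among them Aspa, the enzyme that releases acetate from N-acetylaspartate in oligodendrocytes, from 41.1 ± 9.95 to 28.8 ± 4.77 CPM (adjusted p = 0.00913 in the same fit). Among the 10 lineage transcription factors 0 were called at this dose. The median over all genes was −0.01.

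At 400 µM the progenitor list showed the most calls, with 9 of 15 genes lower (beside 14.3% of all genes), 0 higher (14.7%) and a median log2 difference of −0.51. Neu4, a sialidase of progenitors, was at 4.28 ± 0.757 CPM against 7.46 ± 1.58 CPM in controls, a fall of 0.81 (adjusted p = 2.28e-06, edgeR fit as above). Tnr, the matrix protein tenascin R, was at 237 ± 38.2 CPM against 383 ± 97.8 CPM, a fall of 0.69 (adjusted p = 5.95e-07), and Matn4, a matrilin, fell by 0.68 (adjusted p = 0.0178), a call lost without control replicate 18. Pdgfra and Cspg4 themselves are counted with the members and not in this list. Of the myelin protein genes 4 of 16 fell and 1 rose, Gjb1, a gap junction protein of oligodendrocytes, from 77.2 ± 20.2 to 108 ± 30.2 CPM (log2 change 0.49, adjusted p = 0.0177). Tspan2 fell by 0.50 and Plekhb1 fell by 0.45. Newly formed oligodendrocyte genes fell in 5 of 10 and lineage transcription factors in 3 of 10, with 0 higher in both lists.

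Pdgfa, the ligand of the receptor encoded by Pdgfra, moved the other way. It was at 42.6 ± 8.82 CPM in the controls, 52.2 ± 8.86 CPM at 200 µM heme-albumin and 61.9 ± 10.4 CPM at 400 µM (SD, n = 10 each). The log2 rises were 0.29 (SE 0.10, adjusted p = 0.0412) and 0.54 (SE 0.10, adjusted p = 2.77e-05), and 0.08 for each doubling of dose (adjusted p = 0.00136), in the edgeR fit of batch 1. The call at 400 µM was kept in all 17 alternatives, and that at 200 µM was lost without any of 6 of the 10 control libraries. Of the 15 genes of this list 1 rose and 4 fell at 200 µM and 2 rose and 6 fell at 400 µM.

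Markers of microglia, the resident macrophages of the brain, moved with these comparisons. Their summed level over 8 genes ran from 485 to 1981 CPM in controls (median 890), from 348 to 878 CPM at 200 µM heme-albumin (median 615) and from 353 to 1166 CPM at 400 µM (median 670), and 7 of 8 were called lower at 200 µM. Astrocyte markers were lower for 4 of 8 genes at 200 µM and 5 of 8 at 400 µM. Correlations with the mean log2 level of the microglia markers were taken across the 60 libraries, after the group means were removed. Pearson r was −0.77 for Olig2, −0.72 for Olig1 and 0.56 to 0.65 for the 5 myelin genes. For the progenitor genes it was 0.77 (Cspg4) and 0.60 (Pdgfra). The part of these cells in the Olig2 result was not tested.

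The second question was what hemopexin did to the response, and here 5 members differed between the forms of heme at the same dose and time. Compared with 200 µM heme-albumin, the heme-hemopexin complex left both transcription factor genes lower and 3 myelin genes higher. Olig2 ran from 138 to 211 CPM with the complex (median 183) against 192 to 284 CPM with heme-albumin, and all 10 libraries lay below the heme-albumin mean, a log2 difference of −0.44 (SE 0.11, adjusted p = 0.00228). Olig1 ran from 383 to 640 CPM (median 528), a log2 difference of −0.33 (adjusted p = 0.0458). The myelin gene Mog ran from 254 to 467 CPM (median 340) against 221 to 366 CPM (median 264), a difference of 0.38 (SE 0.13, adjusted p = 0.0282). Cnp ran from 1137 to 1802 CPM (median 1373) against 839 to 1328 CPM (median 1065), a difference of 0.34 (SE 0.11, adjusted p = 0.019). Mobp ran from 1691 to 3263 CPM (median 2323) against 1552 to 2622 CPM (median 1800), a difference of 0.39 (SE 0.15, adjusted p = 0.0451). The groups overlapped for all 5, and the Mobp and Olig1 calls were lost when no filter on low counts was applied.

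These 5 of 9 members stood against 25.9% of all genes called in this comparison. Mbp and Mag differed by similar amounts, 0.30 and 0.35 on the log2 scale, with adjusted p-values of 0.105 and 0.112. With the title number as a replicate block 8 of 9 members were called, Mbp, Mag and Cspg4 among them. That fit called 6669 genes in place of 4022, and the labels do not say whether these numbers mark pairs. Compared with the controls, 0 of 9 members were called with heme-hemopexin beside 8.20% of all genes, with 2 of 9 at an unadjusted p under 0.05 beside 31.3% of genes. The count over all genes, 1276, fell to 31 without control replicate 14. For Olig2 that difference was 0.02 with a 95% interval from −0.19 to 0.23, for Olig1 it was 0.00 with an interval from −0.25 to 0.25, and for Mobp it was 0.00 with an interval from −0.29 to 0.29. The comparison with heme-albumin and the comparison of heme-albumin with controls share the heme-albumin libraries and are not independent of each other.

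The lists followed the members. Compared with heme-albumin, 7 of 16 myelin protein genes and 9 of 20 lipid and support genes were higher with heme-hemopexin and 0 were lower, beside 2016 of 15554 genes higher, with medians of 0.33 and 0.38 against 0.01 over all genes. Aspa was at 43.2 ± 9.35 against 28.8 ± 4.77 CPM (log2 difference 0.58, adjusted p = 0.00212), Tspan2 at 515 ± 103 against 386 ± 53.4 CPM (0.42, adjusted p = 0.0127) and Carns1, the carnosine synthase of oligodendrocytes, at 30.02 ± 6.22 against 17.6 ± 3.98 CPM (0.76, adjusted p = 0.00563). Of the progenitor genes 3 of 15 were higher and 1 lower, led by Matn4 at 223 ± 44.3 against 125 ± 43.5 CPM (0.84, adjusted p = 0.00623). In this comparison 7 of 8 microglia markers were also higher, with a summed level from 594 to 1586 CPM (median 1127) with heme-hemopexin, as were 4 of 8 astrocyte markers, and their part in the difference was not tested. Against the controls, the complex raised Sox10 from 213 ± 42.3 to 278 ± 36.4 CPM (adjusted p = 0.0433), Gal3st1, which makes the sulfated lipid of myelin, from 50.6 ± 8.97 to 66.4 ± 8.72 CPM (adjusted p = 0.0429) and Pdgfa to 54.5 ± 6.09 CPM (adjusted p = 0.0358), while the matrix gene Vcan fell by 0.38 (adjusted p = 0.0411). Each of these calls against the controls was lost without any of several control libraries, replicates 12, 14, 16 and 19 among them, and with correction for GC content.

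The third question was whether free Hb changed these genes, and no member did so at either dose or time. At 24 h 0 of 9 members were called at 200 µM, where 0.0971% of 16473 genes were called, and 0 of 9 at 400 µM, where 0.522% were. At 48 h 0 of 9 were called at 200 µM (0.310% of genes) and 0 of 9 at 400 µM (0.601%). In each of these comparisons 0 of 9 members reached even an unadjusted p under 0.05 in the edgeR fit, beside 3.13% and 6.93% of genes at 24 h and 4.76% and 7.07% at 48 h. Mbp ran from 12292 to 18643 CPM in the controls at 24 h (median 14443), from 11176 to 19722 CPM with 200 µM Hb (median 13495) and from 11270 to 18525 CPM with 400 µM Hb (median 14354). The log2 difference of Mbp was −0.02 at 400 µM and 24 h with a 95% interval from −0.21 to 0.16, and −0.06 at 48 h with an interval from −0.25 to 0.12. For Olig2 at 400 µM the intervals ran from −0.13 to 0.32 at 24 h and from −0.30 to 0.15 at 48 h. These intervals do not show that the levels were equal.

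**Figure D2:**
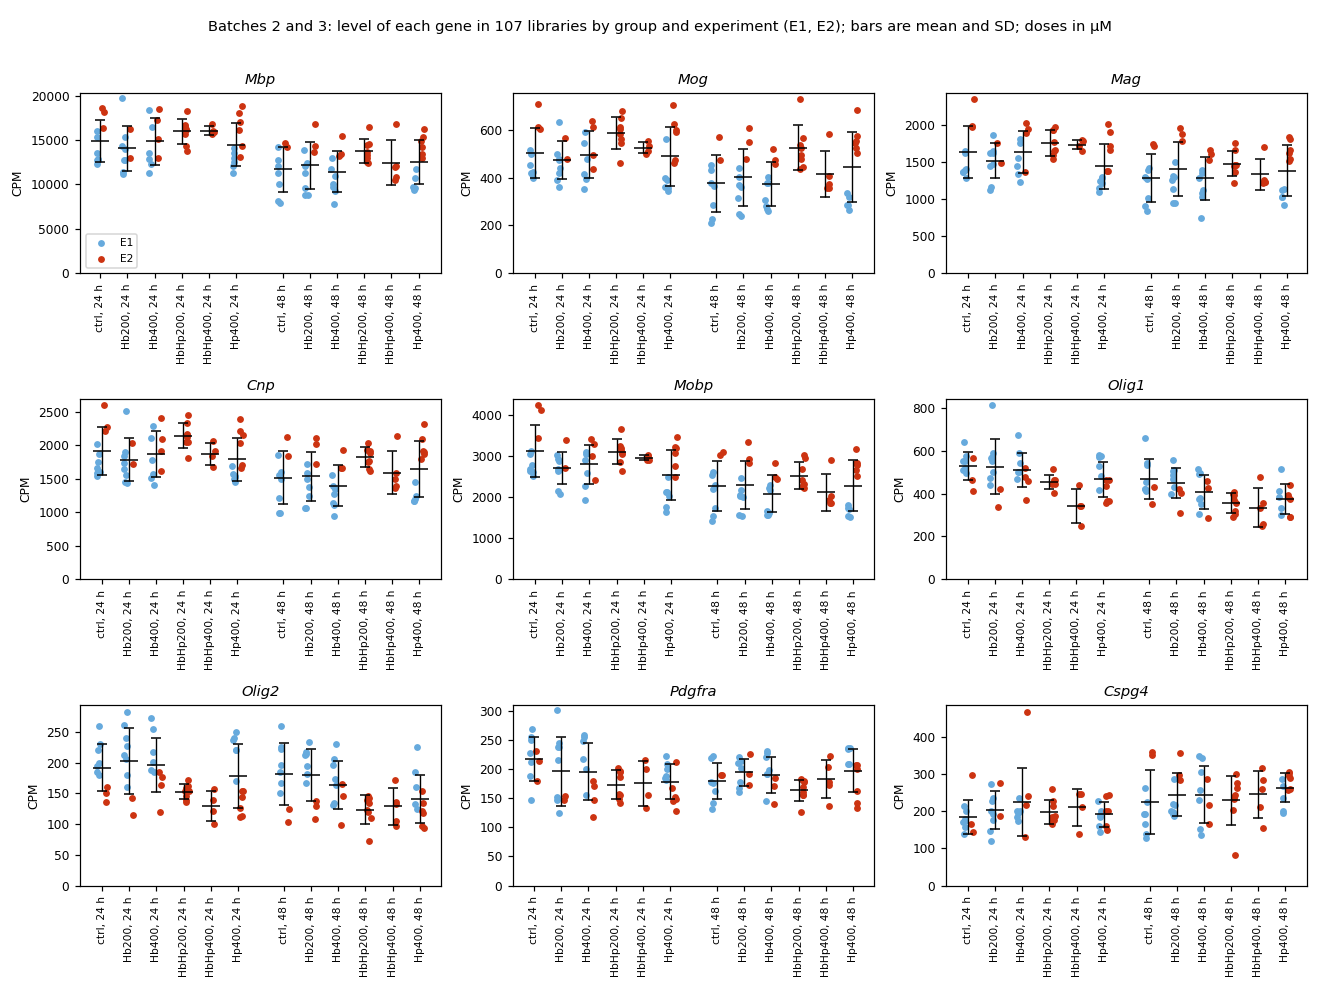
Each panel gives 1 of the 9 genes in batches 2 and 3, with the groups at 24 h and then 48 h on the x axis (doses in µM), the level in CPM on the y axis, 1 point per library coloured by the E1 or E2 code of its name, and bars for the mean and SD of the group. The E2 libraries sit higher than the E1 libraries for the myelin genes (mean Mobp 2879 against 2228 CPM) and lower for Olig2 (134 against 203 CPM), and HbHp groups hold E2 libraries alone.

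With HbHp, single members passed the test at 400 µM and 0 of 9 did at 200 µM. At 24 h the 4 libraries with 400 µM HbHp held Olig1 at 249, 341, 340 and 438 CPM, against 413 to 641 CPM (median 535) in 10 controls. Of these, 3 lay below every control and 1 lay within their range. The log2 difference in the fit with batch and code was −0.57 (SE 0.15, adjusted p = 0.0113, edgeR quasi-likelihood test with Benjamini-Hochberg adjustment over 16473 genes, as in all comparisons of batches 2 and 3). The call was lost without replicate 1, the lowest of the 4 (−0.44, adjusted p = 0.153), among E2 libraries alone (−0.63, adjusted p = 0.0629) and among batch 3 libraries alone (−0.54, adjusted p = 0.127), with the difference keeping its sign in each. This was 1 of 9 members, beside 5.15% of all genes called.

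At 48 h the 5 libraries with 400 µM HbHp held Mobp at 2894, 1923, 1865, 1854 and 2032 CPM. Replicate 1 stood far above the rest. Controls ran from 1426 to 3092 CPM (median 2305), with the E1 controls at a mean of 2054 ± 482 CPM (SD, n = 7) and the E2 controls at 3022 and 3092 CPM. Within the E2 code, then, every HbHp library lay below both controls, while the raw group means of 2113 and 2277 CPM hardly differed. The fitted log2 difference was −0.45 (SE 0.13, adjusted p = 0.0145) and the 1 called member stood beside 11.9% of all genes. It was −0.57 among E2 libraries alone (adjusted p = 0.0121), −0.64 among batch 3 libraries alone (adjusted p = 0.00324) and −0.60 without replicate 1 (adjusted p = 0.00138), when Mag, Cnp and Olig1 passed the test as well, but only −0.15 (adjusted p = 0.598) in a fit with batch and no code.

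With 200 µM HbHp 0 of 9 members were called at 24 h (1.93% of genes) or at 48 h (11.9%). An unadjusted p under 0.05 was reached by 2 of 9 at 24 h (13.2% of genes) and by 1 of 9 at 48 h (25.9%). Between HbHp and Hb at 200 µM 0 of 9 differed at 24 h (0.607% of genes) or 48 h (4.98%), with 0 of 9 (12.3% of genes) and 2 of 9 (19.5%) at an unadjusted p under 0.05. Between HbHp and Hp at 400 µM 0 of 9 differed at 24 h (0.619%) or 48 h (1.44%), with 1 of 9 (8.98%) and 3 of 9 (15.9%) at an unadjusted p under 0.05. Hp alone gave 0 of 9 at 24 h (0.704% of genes), with 0 of 9 higher (6.25% of genes) and 4 of 9 lower (5.73%) at an unadjusted p under 0.05, and it gave 1 of 9 at 48 h (10.8%). The latter was Olig1, from 290 to 513 CPM with Hp (median 383) against 353 to 658 CPM in controls (median 429), a log2 difference of −0.37 (adjusted p = 0.0289) that was lost after correction for GC content and length (adjusted p = 0.0615), among E2 libraries alone (−0.22), among batch 3 libraries alone (−0.23) and when each time was fitted alone. HbHp, Hp and Hb were all compared with the same controls.

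**Figure D3:**
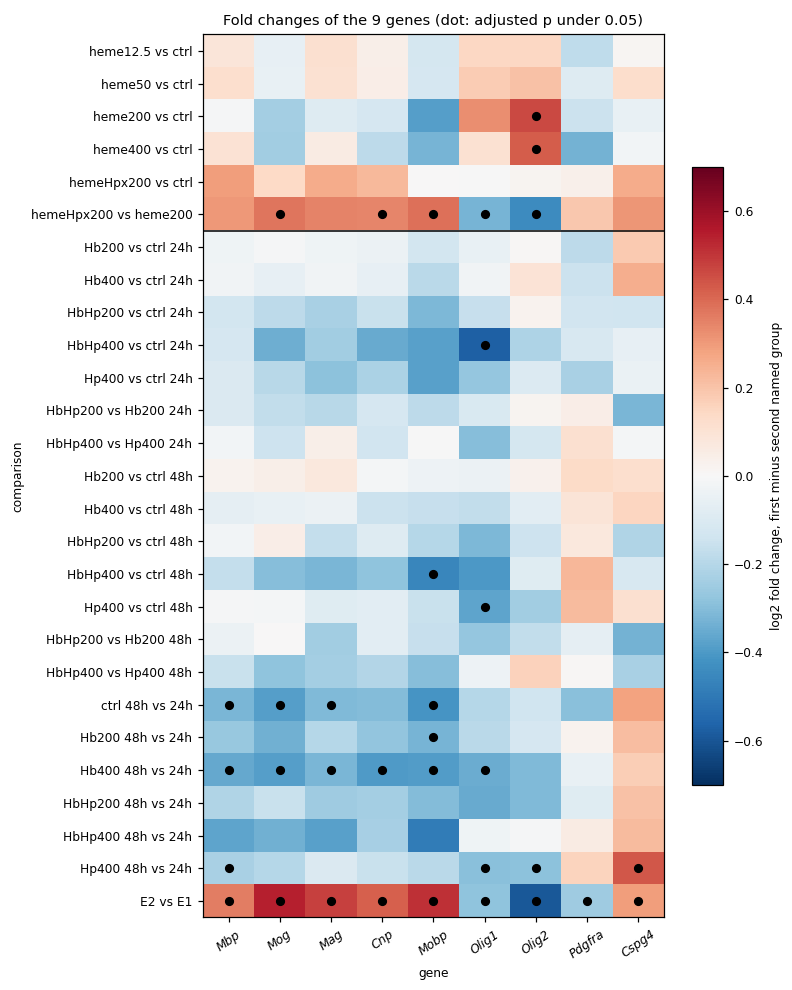
Fitted log2 fold changes of the 9 genes (x axis) in each comparison (y axis, first named group minus second, batch 1 above the line and batches 2 and 3 below it), in colour from blue (lower) to red (higher), with a dot where the adjusted p was under 0.05. Olig2 is called higher at 200 and 400 µM heme-albumin, the myelin genes are called lower at 48 h than at 24 h with 400 µM Hb and, Cnp excepted, in controls, and all 9 genes are called between E2 and E1.

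Pdgfa rose in these sets as well. At 24 h it was at 86.1 ± 14.029 CPM with 400 µM HbHp (SD, n = 4) against 58.4 ± 7.95 CPM in controls (SD, n = 10), a log2 rise of 0.51 (adjusted p = 6.38e-05 in the edgeR fit of batches 2 and 3). At 48 h it was at 55.7 ± 6.11 CPM in controls and rose by 0.32 with 200 µM Hb, 0.29 with 400 µM Hb, 0.38 with 200 µM HbHp, 0.62 with 400 µM HbHp and 0.45 with Hp alone (adjusted p-values from 1.05e-07 to 0.00609). Among E2 libraries alone and among batch 3 libraries alone only the rises with 400 µM HbHp were called. Vcan and Bcan, which encode the proteoglycans versican and brevican, fell with 400 µM HbHp at 48 h, from 283 ± 33.9 to 182 ± 19.8 CPM (log2 change −0.41, adjusted p = 0.000102) and from 464 ± 78.9 to 299 ± 34.2 CPM (−0.56, adjusted p = 0.00104), calls that were lost among E2 libraries alone. Jag1, a Notch ligand, rose by 0.88 there (adjusted p = 7.14e-06). The CPM means in this paragraph are raw, and most controls were E1 while every HbHp library was E2, so they mix code and treatment. The log2 changes come from the fit with batch and code and can differ from the raw means.

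The fourth question was the course of these genes in untreated slices, in which 4 of the 5 myelin genes fell from 24 h to 48 h. Mobp ran from 2518 to 4249 CPM at 24 h (median 2907) and from 1426 to 3092 CPM at 48 h (median 2305), and fell by 0.42 on the log2 scale (SE 0.10, adjusted p = 0.00662). Mbp ran from 7858 to 14631 CPM at 48 h (median 12114) and fell by 0.32 (SE 0.10, adjusted p = 0.0362). Mog fell by 0.38 (SE 0.12, adjusted p = 0.0403) and Mag fell by 0.31 (SE 0.09, adjusted p = 0.0418), while Cnp differed by −0.30 (adjusted p = 0.0586). The ranges of the times overlapped for each gene. In a fit with batch and no code the falls were of similar size but 0 members were called (Mobp −0.46, adjusted p = 0.0563, and Mbp −0.35, adjusted p = 0.0956). When every gene was kept whatever its counts, only Mobp passed. With the full name code (E1 or E2 with a letter and number) as a replicate block, 0 members were called. Olig1, Olig2, Pdgfra and Cspg4 did not pass the test, with differences of −0.20, −0.14, −0.29 and 0.28.

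These 4 of 9 members, all lower, stood beside 2.85% of all genes called lower and 4.50% called in either direction. The falls had the same size in the controls of batch 2 and E1 alone (6 at each time), −0.45 for Mobp and −0.35 for Mbp, with adjusted p-values of 0.197 and 0.289 in that smaller fit. Of the other myelin protein genes 6 of 16 fell, of the lipid and support genes 7 of 20 fell, and 0 rose in either list. Gjb1 went from 144 ± 31.5 to 99.4 ± 26.1 CPM (log2 change −0.50, adjusted p = 0.00553), Trf, the iron carrier transferrin made by oligodendrocytes, from 3621 ± 687 to 2664 ± 368 CPM (−0.43, adjusted p = 0.0023) and Bcas1, a gene of newly formed oligodendrocytes, from 886 ± 159 to 622 ± 127 CPM (−0.50, adjusted p = 0.0112). Among the 15 progenitor genes 0 were called. Of the 8 microglia markers 2 were higher at 48 h, with summed levels from 406 to 2115 CPM (median 1048) at 24 h and from 525 to 3737 CPM (median 1510) at 48 h, and their part in the falls was not tested.

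The same contrast was then read within each treatment. With 400 µM Hb 6 of 9 members fell from 24 h to 48 h (9.77% of all genes called), namely Mbp by 0.36, Mog by 0.38, Mag by 0.32, Cnp by 0.40, Mobp by 0.39 and Olig1 by 0.35, with adjusted p-values from 0.00564 to 0.0219. Mbp went from a median of 14354 to 11322 CPM and Mobp from 2951 to 2194 CPM. With 200 µM Hb 1 of 9 fell (2.82% of genes), Mobp by 0.32 (adjusted p = 0.0415). With Hp alone 4 of 9 were called (24.1% of genes), Mbp with a fall of 0.23, Olig1 with a fall of 0.30, Olig2 with a fall of 0.29 and Cspg4 with a rise of 0.44, from 143 to 243 CPM (median 195) up to 195 to 305 CPM (median 268), all 11 libraries at 48 h lying above the 24 h mean.

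With HbHp 0 of 9 members were called at 200 µM (4.19% of genes) or 400 µM (0.152%), while 6 of 9 reached an unadjusted p under 0.05 at 200 µM (23.3% of genes) and 3 of 9 at 400 µM (9.63%). At 400 µM, however, Mobp ran from 2902 to 3036 CPM in the 4 libraries at 24 h and from 1854 to 2894 CPM in the 5 at 48 h, without overlap, as for 3.05% of all genes, with a log2 difference of −0.49 (adjusted p = 0.134). Whether the change with time differed between treatments was not tested. All time calls of the controls, of both Hb groups and of Hp were lost among E2 libraries alone, where Hp had 6 libraries at 24 h. Those of the controls and of both Hb groups were lost among batch 3 libraries alone. With the full name code as a replicate block, the time calls of the controls, of both Hb groups and of Hp were lost as well. That fit called 2 members with 200 µM HbHp, where it called 940 genes in all in place of 690. It called 1 member with 400 µM HbHp, where the alternative fits called from 8 to 78 genes in all. In a fit with batch and no code 2 members were called with 400 µM Hb (Mbp and Cnp), 2 with Hp (Cspg4 and Olig1) and 0 with 200 µM Hb. The shares of all genes called in the fit without the code are not given here, so these member counts were not set against them.

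All 9 members differed between the libraries coded E2 and E1, the split that the fit of batches 2 and 3 allows for. This call of 9 of 9 stands beside a background in which 68.0% of all genes were called. The 5 myelin genes were higher in E2, Mobp by 0.51 on the log2 scale (2879 ± 494 CPM, n = 54, against 2228 ± 505 CPM, n = 53), Mog by 0.54, Mag by 0.48, Cnp by 0.42 and Mbp by 0.36. Olig2 was lower by 0.59 (134 ± 24.1 against 203 ± 37.5 CPM, adjusted p = 1.16e-14), Olig1 by 0.28 and Pdgfra by 0.25, while Cspg4 was higher by 0.29. The summed level of the progenitor list had a median of 2481 CPM in E2 and 2982 CPM in E1, the opposite direction to Cspg4. Among the Hp libraries alone, which were all of batch 3 and had both codes at both times, 8 of 9 members were called, and Cspg4 was not (0.18, adjusted p = 0.091). Across the alternative fits of this contrast, the fit of Hp libraries included, 7357 to 11530 genes were called, so such calls are not particular to the members. In the Hp libraries Mobp ran from 1646 to 2484 CPM in the 6 E1 libraries at 24 h and from 2497 to 3473 CPM in the 6 E2 libraries. These ranges did not overlap, but the share of all genes without overlap between these libraries was not counted. Of the other myelin protein genes 15 of 16 were higher and of the lipid and support genes 19 of 20. All 8 microglia markers were higher too, with summed levels from 311 to 2884 CPM (median 1048) in E1 and from 823 to 3786 CPM (median 2097) in E2, and their part in these differences was not tested. What E1 and E2 stand for is not given in the labels.

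Library by library, the myelin genes moved as a block. After the fitted group, batch and code means were removed, the 10 pairs among the 5 myelin genes had a Pearson r of log2 CPM from 0.82 to 0.97 over the 60 libraries of batch 1 and from 0.82 to 0.96 over the libraries of batches 2 and 3. Olig1 and Olig2 had an r of 0.97 and 0.92. The myelin block and the transcription factors went opposite ways in batch 1, with r between the myelin genes and Olig2 from −0.67 to −0.43 and Olig1 from −0.63 to −0.35. In batches 2 and 3 these values were positive, from 0.07 to 0.35 for Olig2 and from 0.28 to 0.57 for Olig1. Pdgfra had an r of 0.49 to 0.70 with the myelin genes in batch 1 and of 0.41 to 0.50 in batches 2 and 3. Cspg4 had an r of 0.51 to 0.76 with them in batch 1 and of −0.03 to 0.35 in batches 2 and 3. In batches 2 and 3 the mean of the microglia markers again had a negative r with Olig2 (−0.80) and Olig1 (−0.76). Its r with the myelin genes was between −0.28 and 0.00. With Cspg4 it was 0.60 and with Pdgfra 0.19. These values describe libraries that share a slice composition, a depth and a scaling within each library, and they carry no test.

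**Figure D4:**
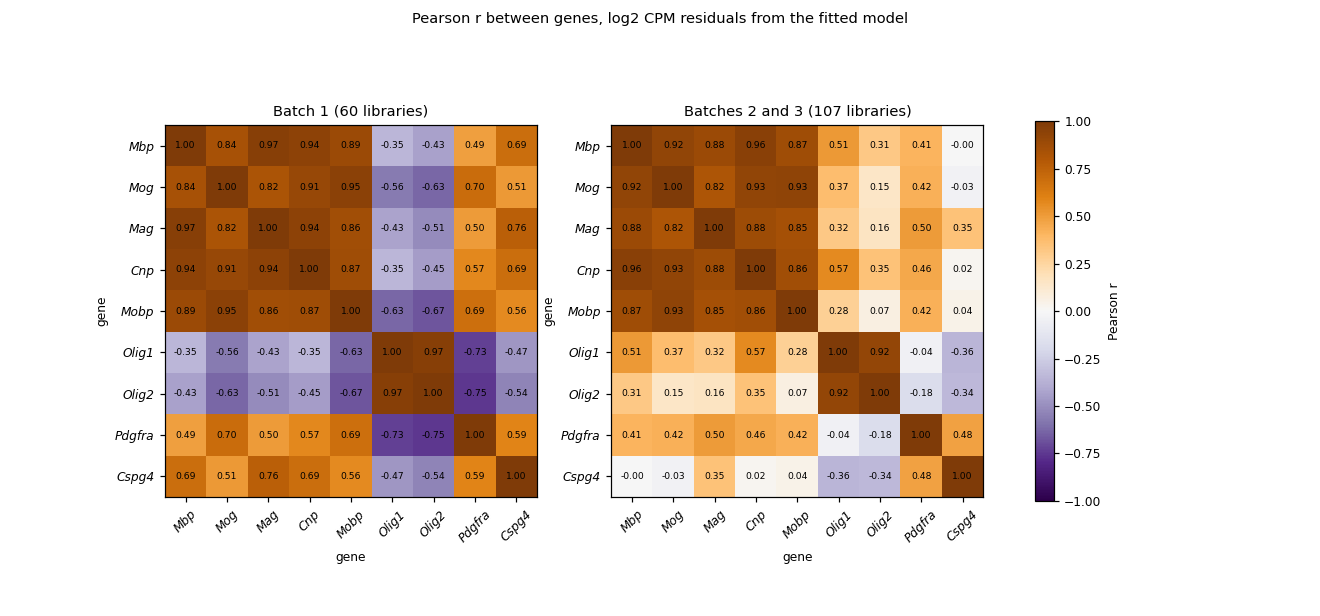
Pearson r between each pair of the 9 genes (both axes), computed on log2 CPM after the fitted means were removed, over the libraries of batch 1 (left) and of batches 2 and 3 (right), in colour from −1 to 1 with the value printed. The myelin genes form a block with r of 0.82 or more in both panels, Olig1 and Olig2 form a pair, and the r between that pair and the block is negative in batch 1 and positive in batches 2 and 3.

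The genes whose residuals were most like the mean of the 5 myelin genes in batch 1 were Tprn (r 0.98, and 0.89 in batches 2 and 3), Cldn11 (0.98 and 0.95), Pllp (0.97 and 0.94), Cdc42ep2 (0.97 and 0.94) and Aplp1 (0.97 and 0.95), among 13881 genes. Cldn11 encodes the claudin of myelin tight junctions and Pllp encodes plasmolipin, another myelin membrane protein. The genes most like the mean of Pdgfra and Cspg4 were Il17ra (0.95 and 0.85), Epas1 (0.94 and 0.75), Ppm1h (0.94 and 0.84), Esyt1 (0.94 and 0.72) and Pdzd2 (0.93 and 0.74), among 13884 genes, each over the same libraries.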

How the data were processed

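RNA from organotypic slices was prepared with the Lexogen SPLIT kit and sequenced after Illumina TruSeq mRNA library preparation. The authors deposited raw read counts per Ensembl gene for each of 188 libraries, and the submitters' processing notes name featureCounts and GRCm39. The aligner, the strand setting and the versions are not given in the sources used here. The files also hold 0 columns of per-sample values outside these counts.

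The labels put 167 libraries in groups and 21 in none. Symbols were matched to the Ensembl identifiers through GENCODE annotation on GRCm38, the build of all coordinates given here, and promoter windows came from RefSeq on GRCm38.p6. Counts were scaled by TMM and fitted with edgeR 4.0.16 (quasi-likelihood F test, R 4.3.3) after filterByExpr, with all 60 libraries of batch 1 in one fit (15554 genes) and all grouped libraries of batches 2 and 3 in another (16473 genes, with terms for batch and for the E1 or E2 code of the library name). P-values were adjusted by the Benjamini-Hochberg method over all genes of a fit, at a threshold of 0.05. The SE is the absolute log2 change divided by the root of F, and intervals use 54 or 93 residual degrees of freedom. Levels are CPM on TMM-scaled library sizes, and residual correlations used log2 CPM with a prior count of 2. The fits were tested on simulated data with known changes. For 200 µM heme-albumin against controls, 61% of log2 changes of 0.5 and 99% of changes of 1 were recovered. For 200 µM HbHp against controls at 48 h, 68.7% and 78.8% were. Of the unchanged genes, 11 and 8 were called. The simulated data held no batch or code effect, so they did not test the separation of treatment from batch and code.

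All 9 members were named, and of each further list at most the 4 called genes with the largest change and a mean of at least 1 CPM. For likeness the 5 genes of highest residual correlation were named. The members and lists were chosen with earlier results of these data known. Alternatives were DESeq2 1.42.0, RLE scaling, other filters, replicate blocks, GC and length correction, other covariates and subsets of libraries. The 48 h against 24 h contrasts within treated groups, the fits leaving out each control of batch 1, the fits of 20 libraries, of Hp libraries alone and of E1 controls alone were chosen once the values were known. No libraries held like counts beyond sampling noise (smallest chi-square per degree of freedom 3.48 among pairs of one group).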

Additional observations from a re-analysis of the deposited data

Results flagged for a closer look

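Of 144 combinations of gene and group with 4 to 10 libraries, 16 held a library whose gap to its nearest neighbour was large for the range of its group, by Dixon's 95% criterion, which chance alone meets in about 1 of 20 groups. These combinations are not independent, since the myelin genes move together within a library. Replicate 8 at 12.5 µM heme-albumin was the highest of its group for Mbp (18220 CPM, the others reaching 10749), Mog (458 CPM against 331), Mag (2121 CPM against 1317) and Mobp (3914 CPM against 2281). Replicate 9 at 200 µM heme-albumin was the highest for Mobp (2622 CPM against 2104).

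Replicate 1 of 400 µM HbHp at 48 h was the highest of its 5 libraries for all 5 myelin genes, Mbp (16847 CPM, the others reaching 12078), Mog (583 CPM against 405), Mag (1705 CPM against 1260), Cnp (2145 CPM against 1580) and Mobp (2894 CPM against 2032). Replicate 1 of 200 µM HbHp at 48 h, whose name carries the same code as that library, was the highest for Mog (729 CPM against 567) and the lowest for Cspg4 (81.6 CPM, the others starting at 203). Replicate 4 of 200 µM HbHp at 48 h was the lowest for Pdgfra (126 CPM, the others starting at 156). Single libraries were also highest for Olig1 with 200 µM Hb at 24 h (replicate 10, 813 CPM against 591), for Cspg4 with 400 µM Hb at 24 h (replicate 6, 465.6 CPM against 242) and for Cspg4 in the controls at 24 h (replicate 11, 297 CPM against 213). No cause was tested for any of these values.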

How the results depend on the processing

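No value of a single member that passed the test changed sign in any alternative. Of the alternative values of the members, 3040 kept direction and side of the threshold, 94 lost the call, 62 gained it and 116 uncalled values moved by more than the spread. Counts of called members (of 9) are given here where they changed by over 1.5 times, and the cause was not tested except where fewer libraries were fitted. In batch 1 GC correction gave 2 (in place of 1) at 200 µM heme-albumin, 3 (1) at 400 µM and 2 (1) along the dose, and fits of 30 or 20 libraries gave 3 and 2 at 200 µM. For heme-hemopexin against heme-albumin (5), omitting the filter gave 3. Leaving out single controls gave 1 to 3 at 200 µM, 1 to 2 at 400 µM and 0 to 1 for heme-hemopexin against controls (0), the highest values coming without replicate 15 at 200 µM and without 13 for heme-hemopexin. In batches 2 and 3, leaving out single libraries of 400 µM HbHp gave 0 to 1 against controls at 24 h, 1 to 4 at 48 h, 0 to 1 against Hp at 48 h and 0 to 1 for 48 h against 24 h, each extreme coming without replicate 1.

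DESeq2 gave 1 (0) for Hp at 24 h, 2 (1) for 400 µM HbHp at 48 h and 1 (0) for 48 h against 24 h with 200 µM HbHp, as did at least 10 counts in every library, and RLE scaling gave 2 for 400 µM HbHp at 48 h. GC correction gave 0 (1) for Hp at 48 h. Without a filter the time contrast gave 1 (4) in controls and 0 (1) with 200 µM Hb. With batch but no code, or with neither, 200 µM HbHp at 48 h gave 2 or 3 (0) against controls and 2 or 2 (0) against Hb, and the time contrast gave 0 (4) in controls, 0 (1) with 200 µM Hb, 2 (6) with 400 µM Hb and 2 (4) with Hp. E2 libraries alone gave 0 (1) for 400 µM HbHp at 24 h, 0 (1) for Hp at 48 h, 3 (0) for HbHp against Hp at 48 h, and for the time contrast 0 in controls, in both Hb groups and with Hp, 2 (0) with 200 µM HbHp and 1 (0) with 400 µM HbHp. Batch 3 alone gave 2 (1) for 400 µM HbHp at 48 h, 0 (1) for Hp at 48 h, 1 (0) for HbHp against Hp at 48 h, and for the time contrast 0 in controls and both Hb groups and 1 (0) in both HbHp groups. Each time alone gave 0 (1) for Hp at 48 h, and E1 controls alone gave 0 (4) for time.

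The labels do not say whether libraries that share a name code or title number are pairs. The main fits paired libraries by neither. Libraries sharing a name code had a median correlation of residuals of 0.18 in batch 1 and 0.07 in batches 2 and 3. Those sharing a title number had 0.17 and −0.04. For the name code, 59.2% of pairs in batch 1 and 46.4% in batches 2 and 3 were over 0.1. Single pairs of batch 1 ran from −0.60 to 0.77. With the name code as a replicate block, counts became 1 (0) for heme-hemopexin against controls, 3 (1) for 400 µM HbHp at 48 h and, for time, 0 (4) in controls, 0 (1) and 0 (6) in the Hb groups, 2 (0) and 1 (0) in the HbHp groups and 0 (4) with Hp. With the title number as a replicate block they became 8 (5) for heme-hemopexin against heme-albumin, 0 (1) for 400 µM HbHp at 24 h and at 48 h, 0 (1) for Hp at 48 h, and for time 1 (4) in controls and 0 (1) with 200 µM Hb. Counts over all genes stayed within 1.5 times at 200 µM (1540 to 2645) and 400 µM heme-albumin (3103 to 5268) and along the dose (3344 to 4431), and moved further in at least 1 alternative of every other comparison. Among these were heme-hemopexin against controls (1276, from 31 without control replicate 14 to 3659 with the name code block), 200 µM HbHp at 48 h against controls (1959, from 145 to 5150) and against Hb (821, from 4 to 3427), 400 µM HbHp at 48 h (1968, from 225 to 4300), Hp at 48 h (1773, from 0 to 2717), and time in controls (742, from 0 to 968), with 400 µM Hb (1610, from 0 to 2080) and with Hp (3975, from 118 to 4622). Depth did not limit the members, whose lowest count in batch 1 was 1066.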

Other observations

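The 21 libraries outside the groups were scaled by TMM together with all libraries of batches 2 and 3. That run was separate from the scaling behind the group levels, so the values are not strictly on the scale of those levels. Of these 21 libraries, 20 carry a tag of 400 µM hemoglobin with hemopexin while their titles name hemoglobin with haptoglobin, 10 at each time. In the 10 at 24 h Olig1 ranged from 165 to 331 CPM (median 275), Olig2 from 85.002 to 163 CPM (median 146), Mbp from 7848 to 13470 CPM (median 11631), Mobp from 1198 to 2521 CPM (median 1710), Pdgfra from 127 to 313 CPM (median 157) and Cspg4 from 176 to 245 CPM (median 197). In the 10 at 48 h Olig1 ranged from 122 to 357 CPM (median 224), Olig2 from 83.1 to 169 CPM (median 119), Mbp from 7576 to 13170 CPM (median 8961), Mobp from 1113 to 1944 CPM (median 1433), Pdgfra from 158 to 234 CPM (median 216) and Cspg4 from 219 to 392 CPM (median 301). The remaining library, without a treatment name, had Mbp at 18254 CPM, Mobp at 4037 CPM, Olig1 at 457 CPM and Olig2 at 135 CPM.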
